A study of Homo sapiens with 4 samples.

Results

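The genes described here encode the nuclear RNA exosome nucleases, the adaptor proteins that bring RNA to them, and the nuclease that acts behind terminating RNA polymerase II (Pol II). They were chosen by name and role, by a rule that uses no measured value but was written with earlier results of these data known: EXOSC10, DIS3, MTREX, ZCCHC8, RBM7, ZFC3H1, ZC3H18, SRRT and XRN2, which are 9 of the 60708 genes in the table. All 9 were found in it by their stable gene identifier.

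The exosome digests RNA from its 3′ end and, in the nucleus, works through the helicase MTREX (also called MTR4). Adaptor complexes hand RNA to MTREX: NEXT, built from ZCCHC8 and RBM7, mainly takes short unadenylated transcripts such as promoter upstream RNA and enhancer RNA, and PAXT, built around ZFC3H1, takes polyadenylated nuclear RNA. SRRT (ARS2) joins both to the cap-binding complex, with ZC3H18 as a further link, and XRN2 digests RNA from the 5′ end left by 3′ end cleavage, a step tied to the release of Pol II from the template.

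Libraries came from HEK293 (a line grown from human embryonic kidney) of the genotype RPB1 degron: the endogenous largest subunit of Pol II could be destroyed by adding auxin. In all groups, a plasmid encoding RPB1 was introduced by transient transfection, auxin was added 48 h later and kept for 48 h, and new RNA was then labeled with 4-thiouridine for 20 min. The C-terminal domain (CTD) of the plasmid-encoded RPB1 held 52 heptad repeats, either wild-type (52X WT) or with threonine 4 replaced by alanine in every repeat (52X T4A). There were 2 libraries per condition, and the comparison asks how the labeled RNA of a gene differs between cells that rely on either CTD; since no source says that replicates were separate cultures, p-values measure only the spread between these libraries, which may be technical. The transfection was transient, so a library can hold cells with differing amounts of plasmid RPB1.

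TT-seq recovers the RNA fragments made during the labeling, so a gene is read over its introns as well as its exons. The libraries held between 33188536 and 45605027 counts, and log2 CPM (counts scaled to a common library size with TMM) correlated between 0.9745 and 0.991 among them. POLR2A, the gene of the replaced protein, was at 9640 and 8720 CPM in 52X WT and at 7492 and 8083 CPM in 52X T4A (log2 fold change -0.24, SE 0.25, edgeR with Benjamini-Hochberg adjusted p = 0.659), where reads of the plasmid and of the endogenous gene cannot be told apart. Of the HEK293 marker genes PAX2, VIM, NEFM, NEFL, KRT8 and KRT18, NEFM was at or near 0 (0 to 6 counts). PAX2 was low as well, at 1.81 to 2.78 CPM, a level like that of the fibroblast marker COL1A1 (1.85 to 2.95 CPM). The summed level of the HEK293 markers was 219 and 225 CPM in 52X WT and 184 and 237 CPM in 52X T4A. Nearly all of it came from KRT8, NEFL, VIM and KRT18. The sum for 5 markers of blood, liver, fibroblast and kidney tubule cells was 3.18 to 4.45 CPM. CPM is a share of the library, so a change common to all genes would not be seen.

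For 8 of the 9 genes, the labeled RNA of cells with 52X T4A lay close to that of cells with 52X WT: their estimated fold changes ran from 0.929 to 1.12, and none passed the test. Their 95% intervals ran together from 0.80 to 1.31, so that each lay within 1.5-fold in both directions. RBM7 is the exception, because nearly all of its span was not counted. Differential expression was tested across 23321 genes with edgeR's quasi-likelihood test, and 0 of the 9 genes had a Benjamini-Hochberg adjusted p below 0.05, a threshold passed by 0.00429% of all tested genes (1 gene). At an unadjusted p below 0.05 the count was also 0 of 9, where 7.45% of tested genes were higher and 8.02% lower in 52X T4A.

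The median log2 fold change was 0.03 over the 9 genes and 0.03 over the 8 without RBM7, beside -0.00076 over all tested genes and -0.04 over tested protein-coding genes. In 2 of the 9 (DIS3 and ZCCHC8) both 52X T4A libraries were above both 52X WT libraries, where 24.8% of all tested genes did the same. In 2 others (EXOSC10 and ZC3H18) both were below, where the share of all tested genes was 24.7%. An interval within 1.5-fold was found for 41.3% of tested genes, and for 92.5% of the 4627 genes whose 52X WT mean was at least that of the lowest of these 8. A narrow interval was thus usual at the level of these genes.

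**Figure D1:**
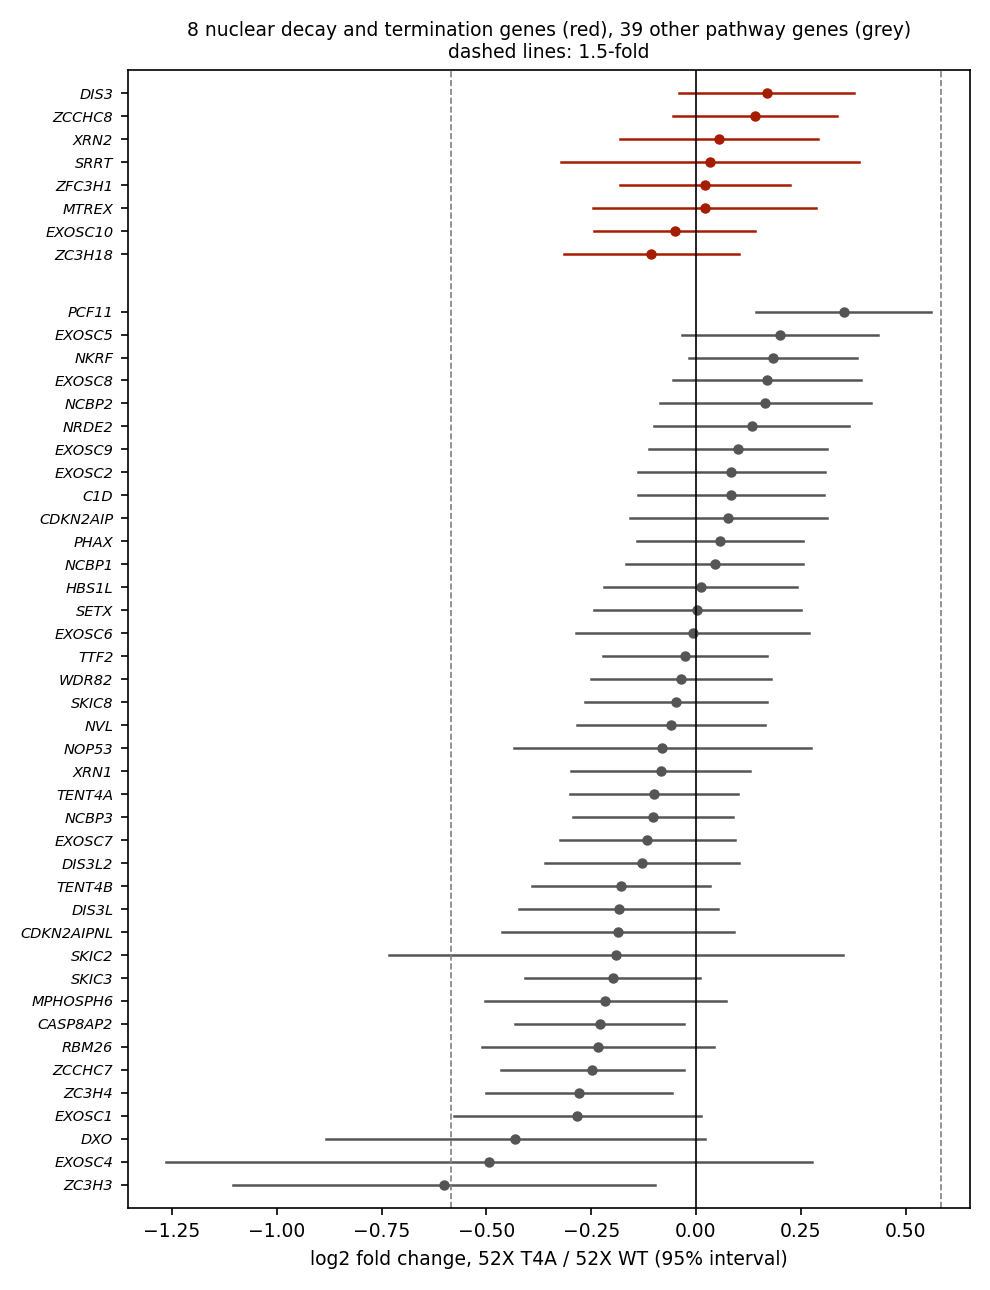
Log2 fold change of labeled RNA between 52X T4A and 52X WT (points) with its 95% interval (lines, edgeR) for 8 nuclear decay and termination genes (red) and 39 other genes of the same pathways (grey), with dashed lines at 1.5-fold. All 8 red intervals cross 0 and lie inside the dashed lines, whereas PCF11, at 0.35, and ZC3H3, at -0.60, mark the ends of the grey points.

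Both nucleases of the nuclear exosome were well counted, DIS3 at a higher level per length than EXOSC10. DIS3, which degrades RNA processively from the 3′ end and can also cut within it, lies on the minus strand at chr13:72752169-72782096 (GRCh38). Its level was 146 and 159 CPM in 52X WT replicates 1 and 2 and 176 and 167 CPM in 52X T4A replicates 1 and 2. Both T4A libraries were above both WT libraries, by a log2 fold change of 0.17 (SE 0.09, 95% interval -0.04 to 0.38, edgeR adjusted p = 0.401), which did not pass the test. EXOSC10, the exonuclease enriched in the nucleolus, lies on the minus strand at chr1:11066618-11099869 and was at 81.0 and 78.5 CPM in 52X WT and 77.6 and 76.4 CPM in 52X T4A. Its T4A libraries were the lower ones, without passing the test (log2 fold change -0.05, SE 0.08, interval -0.24 to 0.14, edgeR adjusted p = 0.791). Leaving out 1 library moved the log2 fold change of DIS3 to between 0.10 (without WT replicate 1) and 0.21, and that of EXOSC10 to between -0.09 (without WT replicate 2) and -0.04.

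MTREX, the helicase that all nuclear exosome adaptors share, is the longest of the 9 genes. It spans chr5:55307989-55425579 on the plus strand and was at 392 and 440 CPM in 52X WT and 447 and 397 CPM in 52X T4A. The conditions overlapped fully, with one high and one low library in each (log2 fold change 0.02, SE 0.12, interval -0.25 to 0.29, edgeR adjusted p = 0.943). The replicates of each condition differed by 1.12-fold and 1.13-fold, more than the condition means did.

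The adaptor scaffolds ZCCHC8 of NEXT and ZFC3H1 of PAXT gave the same picture of little difference. ZCCHC8, a zinc knuckle protein at chr12:122471599-122501073 on the minus strand, was at 79.3 and 82.9 CPM in 52X WT and 91.2 and 87.7 CPM in 52X T4A. Both T4A libraries were above both WT libraries, yet the difference did not pass the test (log2 fold change 0.14, SE 0.09, interval -0.05 to 0.34, edgeR adjusted p = 0.446). ZFC3H1, a zinc finger protein at chr12:71609599-71667725 on the minus strand, was at 152 and 164 CPM in 52X WT. In 52X T4A it was at 161 and 160 CPM, between the WT values (log2 fold change 0.02, SE 0.09, interval -0.18 to 0.22, edgeR adjusted p = 0.918).

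Neither cap-side factor passed the test, and SRRT varied most between replicates. ZC3H18, which bridges the cap-binding complex and NEXT, spans chr16:88570403-88631964 on the plus strand and was at 175.5 and 163.8 CPM in 52X WT and at 151.7 and 163.6 CPM in 52X T4A. The T4A libraries were the lower ones, but 1 library of each condition was at nearly the same level (log2 fold change -0.11, SE 0.09, interval -0.32 to 0.10, edgeR adjusted p = 0.594). The log2 fold change was -0.05 without T4A replicate 1 and -0.18 without T4A replicate 2. SRRT, the hub protein ARS2, spans chr7:100875103-100888664 on the plus strand and was at 73.0 and 56.3 CPM in 52X WT and 57.4 and 74.9 CPM in 52X T4A. WT replicate 1 and T4A replicate 2 were the high libraries, and the groups overlapped fully (log2 fold change 0.03, SE 0.16, interval -0.32 to 0.39, edgeR adjusted p = 0.930).

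XRN2, the nuclease that digests the downstream RNA after cleavage, spans chr20:21303331-21389825 on the plus strand. It was at 298 and 314 CPM in 52X WT and at 335 and 300 CPM in 52X T4A. T4A replicate 1 was the highest library and T4A replicate 2 lay between the WT values, so the groups overlapped (log2 fold change 0.05, SE 0.10, interval -0.18 to 0.29, edgeR adjusted p = 0.818). XRN2 and MTREX had the same order of all 4 libraries, from T4A replicate 1 (highest) through WT replicate 2 and T4A replicate 2 to WT replicate 1, an order also found in 4 of the 39 tested partner genes described further on (NCBP1, PHAX, HBS1L and CDKN2AIP, named for this order after their values were seen) and in 4.49% of all tested genes.

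**Figure D2:**
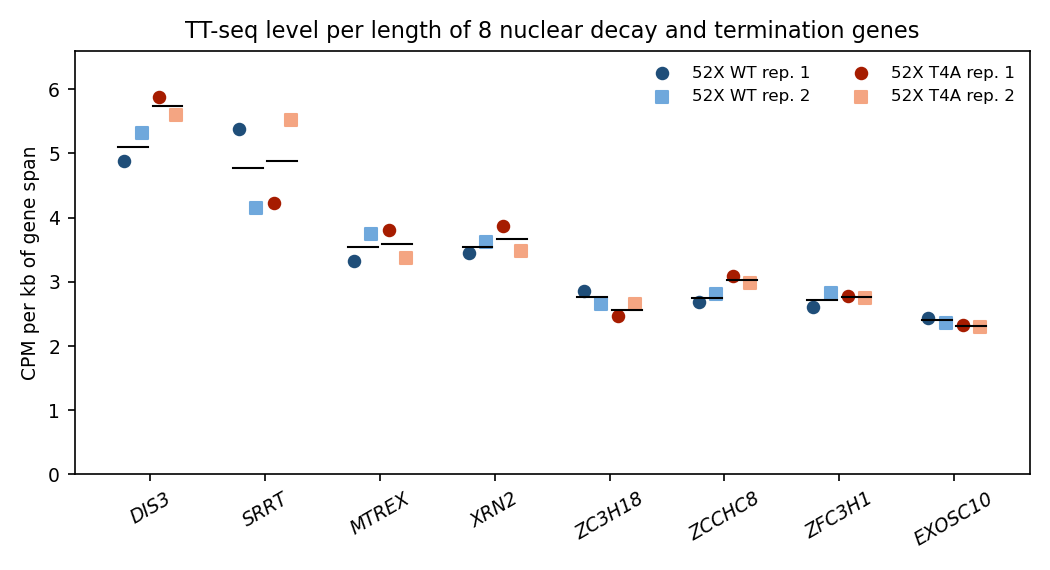
Labeled RNA of 8 genes as CPM per kb of gene span in each of the 4 libraries (circles, replicate 1; squares, replicate 2; blue, 52X WT; red, 52X T4A), with a black line at the mean of each condition. The conditions interleave for MTREX, ZFC3H1, SRRT and XRN2, and SRRT has the widest gap between replicates.

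Set per length of gene span, the 8 genes lay within a narrow band, from 2.40 ± 0.054 (EXOSC10) to 5.10 ± 0.31 CPM per kb (DIS3) in 52X WT (SD, n = 2). In 52X WT, from 82.8% to 94.2% of tested protein-coding genes were lower per length than each of them. The order in 52X WT was DIS3, SRRT (4.77 ± 0.87), MTREX (3.54 ± 0.29) and XRN2 (3.54 ± 0.13), with MTREX and XRN2 almost equal. ZC3H18 (2.76 ± 0.13), ZCCHC8 (2.75 ± 0.085), ZFC3H1 (2.72 ± 0.15) and EXOSC10 followed. In 52X T4A the values were 5.73 ± 0.20 for DIS3, 4.88 ± 0.91 for SRRT, 3.67 ± 0.28 for XRN2, 3.59 ± 0.30 for MTREX, 3.03 ± 0.082 for ZCCHC8, 2.76 ± 0.020 for ZFC3H1, 2.56 ± 0.14 for ZC3H18 and 2.32 ± 0.027 CPM per kb for EXOSC10. Over all 4 libraries, the ranges of DIS3 and SRRT overlapped, as did those of MTREX and XRN2, of ZC3H18 and ZCCHC8, and of ZCCHC8 and ZFC3H1. SRRT stayed above MTREX, XRN2 above ZC3H18, and ZFC3H1 above EXOSC10 in all 4 libraries. These are levels of labeled RNA, introns included, and not of mature mRNA: exons fill between 3.94% and 36.2% of the spans of these 8 genes.

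The spread of SRRT between replicates was 1.30-fold in both conditions, where counting error alone gives a coefficient of variation of 1.87% in WT replicate 1 and 1.97% in T4A replicate 2. For the other 7 genes the replicates differed by 1.01-fold to 1.13-fold. SRRT also has the highest GC content of its gene span among the 9, at 53.2%, followed by ZC3H18 at 51.7%, and both were lower in T4A replicate 1 than in T4A replicate 2. Over 47 genes (these 8 and 39 others of the pathways), the log2 gap between T4A replicates 1 and 2 fell with GC content (Pearson's r -0.683, Spearman's rho -0.457), and the gap between WT replicates 1 and 2 rose with it (0.740 and 0.716). Over 9596 genes with a mean count of at least 500, the same values were -0.640 and -0.425 for T4A and 0.644 and 0.653 for WT. These describe genes that share the same pair of libraries and are not independent replicates. The part of GC content in the SRRT values was not tested.

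**Figure D3:**
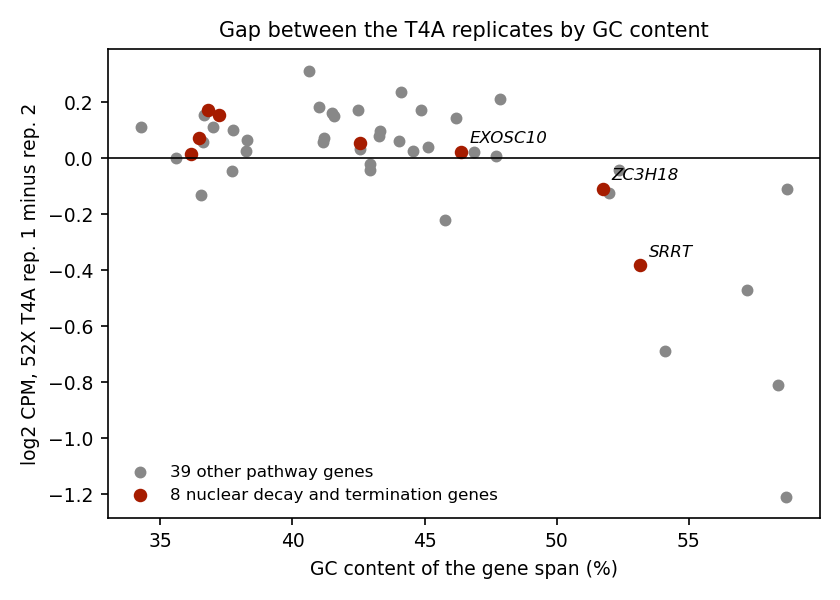
Log2 difference in CPM between 52X T4A replicates 1 and 2 for each gene against the GC content (%) of its gene span, for 8 nuclear decay and termination genes (red) and 39 other pathway genes (grey). SRRT and ZC3H18, at 53.2% and 51.7% GC, lie below 0, as do all 9 genes above 50%, whereas 27 of the 31 genes under 45% lie above 0.

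RBM7, the RNA-binding subunit of NEXT, was hardly measured, and its values say nothing of its transcription. It is listed at chr11:114400030-114414203 on the plus strand with 12 and 15 counts in 52X WT and 4 and 26 counts in 52X T4A, too few for a comparison (log2 fold change 0.43, SE 0.77, interval -1.33 to 2.19, edgeR adjusted p = 0.807). A readthrough gene of the same strand, ENSG00000255663, starts 652 bases into RBM7 and covers 95.4% of its span before running on to the neighbour REXO2. In this table a read over a pair of same-strand genes counts for neither: each of the 1120 lncRNA genes within a well counted gene (at least 1000 counts) of the same strand has no count, while 14.2% of those within one of the opposite strand only have none. The RefSeq gene of RBM7 is shorter than the listed span, and only 16 of its 9942 bases lie outside the readthrough gene.

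The promoter window of RBM7 is printed because it shows where counting stopped. It runs from 250 bases before to 50 bases after the RefSeq start, chr11:114400416-114400715 on the plus strand (RefSeq, GRCh38.p14), and the 34 bases in capitals belong to the readthrough gene as well, so that only reads over the lower-case letters and the listed bases upstream of them could count for RBM7.
RBM7: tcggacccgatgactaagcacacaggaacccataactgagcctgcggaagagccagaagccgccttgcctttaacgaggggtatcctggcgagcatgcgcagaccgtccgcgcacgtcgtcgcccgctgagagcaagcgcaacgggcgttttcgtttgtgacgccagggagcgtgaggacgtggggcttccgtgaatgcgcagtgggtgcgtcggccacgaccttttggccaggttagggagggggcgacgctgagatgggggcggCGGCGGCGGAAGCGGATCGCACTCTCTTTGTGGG

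On the same strand as another of the 9, SNORA9, a snoRNA gene of 129 bases within ZCCHC8, is listed at 0 in all 4 libraries. The readthrough gene at RBM7 was at 603 and 652 counts in 52X WT and 668 and 528 counts in 52X T4A. Those counts come from the 25231 bases that neither RBM7 nor REXO2 covers, over which its level was 0.611 and 0.586 CPM per kb in 52X WT and 0.789 and 0.605 CPM per kb in 52X T4A. It did not pass the test (log2 fold change 0.22, SE 0.16, edgeR adjusted p = 0.523). The stretch lies downstream of RBM7, so these values are not a level of RBM7.

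**Figure D4:**
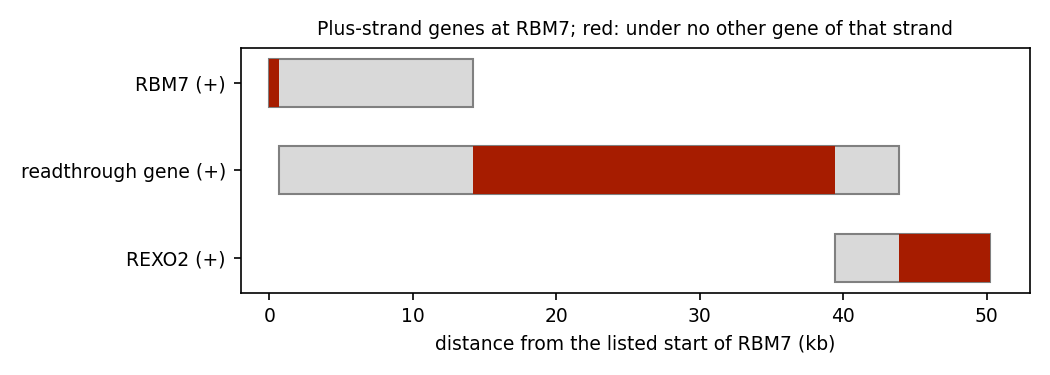
Listed spans of the plus-strand genes at RBM7, drawn to scale as distance (kb) from its listed start; red marks bases under no other of these genes. Of RBM7, only its first 652 bases are red.

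The same arrangement removed 3 genes of the wider pathways from the table. EXOSC3, a cap protein of the exosome core, PABPN1, the nuclear poly(A) binding protein of PAXT, and RBM27, a partner of PAXT, are listed at 0 in all 4 libraries. Each lies wholly within a longer gene of its strand: ENSG00000255872, BCL2L2-PABPN1 and ENSG00000275740. These longer genes held 816 to 1131, 598 to 807 and 814 to 936 counts per library and did not pass the test. Cover was partial in some tested partners, most in EXOSC7 (56.8% of its span, under CLEC3B) and PCF11 (14.4%, under a lncRNA gene). The counts of EXOSC7 and PCF11 come from the rest of their spans.

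By the listed starts, a gene on the other strand starts within 1 kb of 6 of the 9 genes, as is so for 29.1% of the 15329 tested protein-coding genes. THAP2 starts 3424 bases from the listed start of ZFC3H1 but 453 bases from its RefSeq start, which would make the count 7. The nearby start makes the neighbour a measurement beside the gene, but whether a pair shares a promoter was not tested. The listed spans of gene and neighbour overlap by 195 bases at EXOSC10, 482 bases at RBM7 and 374 bases at XRN2. The closest pair is DIS3 with PIBF1, which encodes a centrosomal protein: 36 bases separate their listed starts. The window around the DIS3 start is printed to show this gap, chr13:72781851-72782150 in the direction of DIS3 (RefSeq, GRCh38.p14). The 36 bases in capitals lie between the listed starts, PIBF1 being read leftwards from their left end on the other strand and DIS3 rightwards from their right end; the RefSeq start of DIS3 lies further to the right.
DIS3: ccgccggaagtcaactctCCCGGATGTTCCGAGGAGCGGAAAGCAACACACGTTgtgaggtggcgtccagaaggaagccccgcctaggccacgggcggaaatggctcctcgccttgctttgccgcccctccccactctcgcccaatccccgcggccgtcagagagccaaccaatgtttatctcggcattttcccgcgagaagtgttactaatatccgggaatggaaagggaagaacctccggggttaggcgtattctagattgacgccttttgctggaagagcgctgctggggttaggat

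PIBF1 was at 303 and 346 CPM in 52X WT and 280 and 250 CPM in 52X T4A. Both T4A libraries were below both WT libraries, opposite to DIS3, and neither gene passed the test (PIBF1 log2 fold change -0.29, SE 0.11, edgeR unadjusted p = 0.0306, adjusted p = 0.287). The ratio of DIS3 to PIBF1, in CPM, was 0.483 and 0.460 in 52X WT and 0.627 and 0.669 in 52X T4A. The ratio was higher in 2 of 2 T4A libraries, with a log2 difference of 0.46 and a two-sided exact permutation p = 0.333, the smallest that 2 against 2 libraries can give. PIBF1 was examined as 1 of 6 neighbours, and no adjustment over the pairs can bring such a p below the threshold.

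MTREX and DHX29, an RNA helicase of translation initiation, start 294 bases apart. DHX29 was at 71.9 and 77.9 CPM in 52X WT and 73.5 and 69.7 CPM in 52X T4A. The ratio of MTREX to DHX29 was 5.45 and 5.65 in 52X WT and 6.09 and 5.69 in 52X T4A, a log2 difference of 0.09 (exact permutation p = 0.333). The other neighbours are weakly counted: EXOSC10-AS1 (2.62 to 3.64 CPM), the lncRNA ENSG00000275457 at XRN2 (3.04 to 6.31 CPM), the lncRNA ENSG00000275265 at ZCCHC8 (14 to 27 counts), and C11orf71 at RBM7 (7.63 to 10.2 CPM). None of them passed the test.

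**Figure D5:**
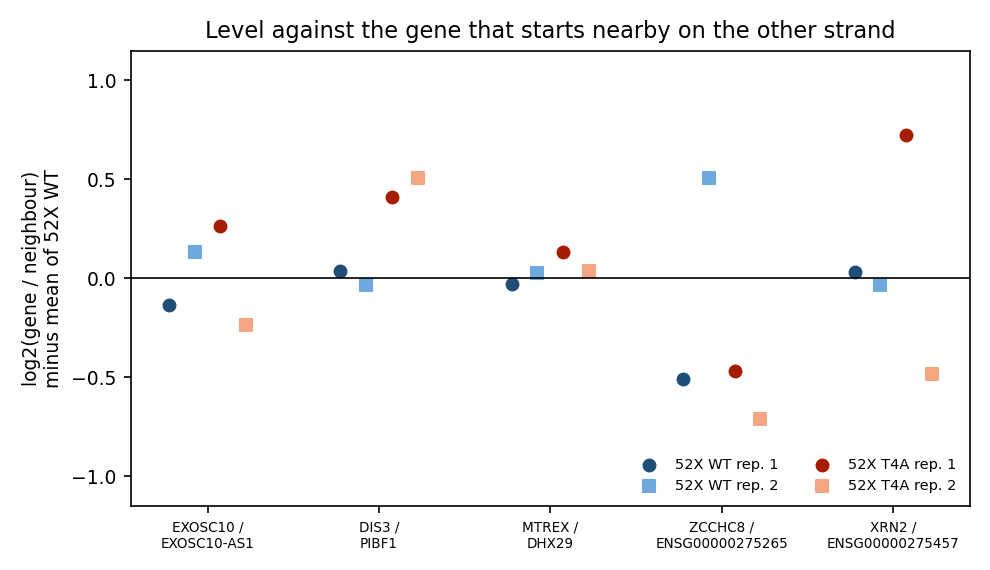
Log2 ratio of CPM between a gene and the neighbour that starts on the other strand, in each of the 4 libraries, less the mean of the 52X WT libraries (circles, replicate 1; squares, replicate 2; blue, 52X WT; red, 52X T4A). The DIS3 pair is 0.46 higher on average in 52X T4A with replicates close together, the MTREX pair lies between -0.03 and 0.13, and the remaining pairs scatter by replicate.

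The promoter windows of the 9 genes were read for 8 short motifs on both strands, with all 35116 windows of the table as the background; XRN2 has 2 windows, of which the first was used. None held TATAAA (11.5% of all windows), 3 held CCAAT (34.6%) and 7 held the GC box GGGCGG (44.95%). TGACGT, the cAMP response element half-site, stood in 4 (MTREX, XRN2, ZC3H18 and ZFC3H1; 7.98%). GCATGCGC was in EXOSC10 and RBM7 (3.05%), CTCGCGAG in EXOSC10 and ZFC3H1 (1.02%), ATGGCG in EXOSC10 and MTREX (10.7%), and CCGGAAGT in DIS3 (4.14%). These are matches of letters in one window per gene.

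The windows of MTREX and XRN2 are printed because these genes had nearly equal levels per length, the same order of libraries, and the TGACGT half-site. The pair was picked after its values were seen. ZC3H18 and ZFC3H1, which also hold the half-site, had other orders of libraries, and a link between motif and order was not tested. The windows of MTREX and XRN2 lie at chr5:55307739-55308038 and chr20:21303081-21303380, both on the plus strand (RefSeq, GRCh38.p14). Capitals mark, in MTREX, the half-site on the other strand (ACGTCA) and ATGGCG, and in XRN2 the full palindrome TGACGTCA, in which a half-site on each strand overlaps the other.
MTREX: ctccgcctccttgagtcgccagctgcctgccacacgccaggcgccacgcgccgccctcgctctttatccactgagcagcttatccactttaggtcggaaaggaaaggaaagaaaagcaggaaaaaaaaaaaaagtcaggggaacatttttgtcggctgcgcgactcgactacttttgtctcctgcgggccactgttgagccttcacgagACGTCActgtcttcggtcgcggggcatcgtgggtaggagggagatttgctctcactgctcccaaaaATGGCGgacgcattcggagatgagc
XRN2: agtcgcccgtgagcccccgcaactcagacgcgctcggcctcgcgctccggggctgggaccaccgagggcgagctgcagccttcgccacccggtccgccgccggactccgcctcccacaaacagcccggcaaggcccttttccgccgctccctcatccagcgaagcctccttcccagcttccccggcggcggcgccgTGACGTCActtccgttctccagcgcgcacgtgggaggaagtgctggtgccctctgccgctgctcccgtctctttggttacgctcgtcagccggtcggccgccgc

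The partners of these proteins were read from the same fit. Of 42 further genes of nuclear and cytoplasmic RNA decay, 39 were tested and 0 passed the edgeR test after adjustment. At an unadjusted edgeR p below 0.05, 1 was higher (PCF11) and 4 were lower (ZC3H3, ZC3H4, ZCCHC7 and CASP8AP2). At that threshold 7.45% of all tested genes were higher and 8.02% lower. Of the 15329 tested protein-coding genes, 1008 were higher and 1602 lower. In 7 of the 39 both T4A libraries were above both WT libraries, and in 16 both were below, where 24.8% and 24.7% of all tested genes and 21.3% and 29.2% of tested protein-coding genes did the same. Their median log2 fold change was -0.08. With 2 libraries per condition the outcome differed between tests. DESeq2 called 8.22% of the genes for which it gave an adjusted p, and 1 (PCF11) of the 37 partners with an adjusted p. EXOSC4 and DXO were given no adjusted p by DESeq2. With the replicate number as a block, edgeR called 2.29%, 1 of the 39 among them (ZC3H3). Neither called any of the 9 genes, although DESeq2 gave RBM7 no adjusted p.

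PCF11, the Pol II CTD-binding factor of cleavage and termination, was highest among the termination partners. It was at 212 and 220 CPM in 52X WT and 278 and 274 CPM in 52X T4A, so that both T4A libraries were well above both WT libraries. Its log2 fold change was 0.35 (SE 0.09, edgeR adjusted p = 0.209), and DESeq2 gave an adjusted p of 0.000657. Over its 12 alternatives the adjusted p ran from 0.000657 to 0.638, and 2 were below the threshold, by DESeq2 and by edgeR without T4A replicate 2. At the other end of that list was DXO, which removes incomplete caps, at -0.43 (5.24 and 5.13 CPM against 3.69 and 3.99 CPM, edgeR adjusted p = 0.341). ZC3H4, the restrictor subunit that ends unproductive transcription, was at 134 and 119 CPM in 52X WT and 99.9 and 109 CPM in 52X T4A (log2 fold change -0.28, SE 0.10, edgeR adjusted p = 0.259).

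The log2 fold change of greatest size among the pathway genes was that of ZC3H3, a PAXT partner, at 127 and 107 CPM in 52X WT and 56.1 and 98.3 CPM in 52X T4A. T4A replicate 1 was far below the others, and T4A replicate 2 was close to WT replicate 2 (log2 fold change -0.60, SE 0.22, edgeR adjusted p = 0.272, or 0.00280 with the replicate block). Over its 12 alternatives the adjusted p ran from 1.16e-14, without T4A replicate 2, to 0.697. Its log2 fold change was -0.24 without T4A replicate 1 and -1.08 without T4A replicate 2. RBM26, which also works with PAXT, was at -0.23 (edgeR adjusted p = 0.384). In the exosome core, 8 of 9 genes were tested, from EXOSC4 at -0.49 (6.44 and 6.35 CPM against 2.74 and 6.33 CPM) to EXOSC5 at 0.20 (51.9 and 45.3 CPM against 55.0 and 56.6 CPM), with a median of 0.04. EXOSC4 was low in T4A replicate 1 alone. Its log2 fold change was -0.01 without that library and -1.24 without T4A replicate 2, beyond that of ZC3H3. The GC content of the gene span is 58.4% in ZC3H3, 58.7% in EXOSC4, 58.7% in DXO and 52.0% in ZC3H4. They are among the 9 genes above 50% GC, which were all lower in T4A replicate 1 than in T4A replicate 2. So is EXOSC5 (52.3%), the highest of the exosome core by log2 fold change. Whether GC content plays a part in these values was not tested.

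Among 8 nucleolar and TRAMP cofactors, ZCCHC7, the zinc knuckle protein of TRAMP, was lowest at -0.25 (246 and 268 CPM against 221 and 212 CPM, edgeR adjusted p = 0.287). NRDE2, which binds MTREX, was highest at 0.13. Of 5 cap-binding complex genes and SRRT partners, NCBP2, the small cap-binding subunit, was highest at 0.17 and CASP8AP2, which works in histone RNA processing, lowest at -0.23 (72.0 and 76.5 CPM against 64.0 and 62.6 CPM, edgeR adjusted p = 0.287). Among 7 cytoplasmic decay genes the log2 fold changes ran from -0.20 (SKIC3, a scaffold of the Ski complex) to 0.01 (HBS1L, a ribosome rescue factor), with a median of -0.13.

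By profile over the 4 libraries, the pathway genes nearest to the mean of the 8 genes were C1D, an EXOSC10 partner, PHAX, the snRNA export adaptor, and TTF2, a termination factor. Their Euclidean distances, on log2 CPM centred on each gene's mean, were 0.0757, 0.0782 and 0.0848. The 8 genes themselves lay between 0.0806 (ZFC3H1) and 0.380 (SRRT) from that mean, which was nearly flat (-0.019 to 0.018). With 4 libraries, such a distance describes nearness to a flat mean, not likeness to each of the 8 genes.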

How the data were processed

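TT-seq was made from 4 libraries. The authors deposited raw counts per gene (featureCounts, uniquely aligned reads). The submitters' processing notes name FastQC, cutadapt 4.6, STAR 2.7.11b, Picard, deepTools 3.5.6 and GRCh38; the counting settings are not given in the sources used here. Listed length equals gene span in 100% of genes, so introns were counted, and 99.974% of 19052 protein-coding genes found by symbol overlapped their GRCh38 position. Names, exonic lengths and GC content were taken by stable identifier from a GRCh37 annotation (58700 of 60708 genes named), and coordinates from the deposited table. The libraries were strand-specific per the labels.

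Counts were tested with edgeR 4.0.16 in R 4.3.3 (TMM, default filter on low counts, quasi-likelihood test, Benjamini-Hochberg adjustment over 23321 genes, threshold 0.05). Standard errors come from the F statistic and 95% intervals from the moderated t. The fit was tested on simulated data. Alternatives were DESeq2 1.42.0, RLE size factors, library size alone, other filters, protein-coding genes only, a length trend removed by offsets, a block on the replicate number, stricter and looser thresholds, exonic length, and each library left out. Libraries with equal replicate numbers deviated from their group means with a correlation of 0.005, so the numbers were not taken as pairs.

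The genes and lists were chosen with earlier results of these data known. Named were the 9 genes, POLR2A, partner genes that passed or were highest or lowest in their list, and the 3 nearest in profile. Genes of the other strand with a listed start within 1 kb, and same-strand genes covering part of 1 of the 9, were also named. ZC3H4, THAP2, EXOSC7, CLEC3B and those at 0 were named after their values were seen. Intervals cover the spread between libraries, and the counting errors cover counting only. PECAM1, a marker of endothelium, was not used here.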

Additional observations from a re-analysis of the deposited data

How the results depend on the processing

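None of the 9 genes passed the threshold under any alternative. Of their 107 values, 98 kept their direction and 9 reversed, all near 0 or resting on 1 library: without a filter on low counts MTREX was at -0.0038 and ZFC3H1 at -0.0019, without WT replicate 1 MTREX was at -0.0726 and ZFC3H1 at -0.0455, without T4A replicate 1 MTREX was at -0.0616 and XRN2 at -0.0181, SRRT was at -0.156 without WT replicate 2 and at -0.184 without T4A replicate 2, and RBM7 was at -1.43 without T4A replicate 2. Leaving out 1 library took EXOSC10 from -0.0931 to -0.0397, DIS3 from 0.0962 to 0.212, ZCCHC8 from 0.0987 to 0.154, ZC3H18 from -0.176 to -0.0451, MTREX from -0.0726 to 0.0896, ZFC3H1 from -0.0455 to 0.0618, SRRT from -0.184 to 0.221, XRN2 from -0.0181 to 0.115 and RBM7 from -1.43 to 1.21. The median of the 9 genes ranged from 0.0062 (without WT replicate 1) to 0.0863 (library size alone), and from 0.0062 to 0.0709 when 1 library was left out. Per exonic length, the median level of 8 genes was 15.4 instead of 3.15 CPM per kb.

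Calls over all genes depended on the test. Against 1 gene, DESeq2 called 913 (292 higher, 621 lower), the fit without a filter 150 (49 higher, 101 lower), the length trend removed by offsets 2, and an unadjusted p 3607 (1737 higher, 1870 lower). Leaving out 1 library gave 0 to 3466: 3 without WT replicate 1, 0 without WT replicate 2, 333 without T4A replicate 1 and 3466 without T4A replicate 2. The lone library was then assumed to vary like the other condition. The replicate block called 533 (205 higher, 328 lower), 0 of the 9 genes, with a median of 0.0332. Of the other pathway genes, DESeq2 called 1 (PCF11), the replicate block 1 (ZC3H3), an unadjusted p 5, and leaving out 1 library 0 to 5, the 5 being EXOSC4, PCF11, SKIC2, ZC3H3 and ZC3H4 without T4A replicate 2. RBM7 could not be fitted with at least 10 counts in every library. With 2 libraries per condition, the intervals give the differences that these libraries do not exclude; the cause of the differing calls was not tested.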
